A study of Mus musculus with 36 samples.

Results

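Voltage-gated potassium channels set how a neuron fires, and 30 of their genes are described here across 36 single neurons of the mouse midbrain. The 30 were taken by name from a deposited table of 55359 genes, and all 30 were found in it. They comprise 20 pore-forming subunits, 6 auxiliary subunits and 4 silent subunits, and every cell enters by its tissue, its clone, its Pvalb value and its Slc17a6 and Gad values. Each library is 1 neuron, and 18 clones gave 2 neurons each. A clone is the progeny of 1 founder cell in which MADM, a Cre-driven exchange between chromosomes, switched on fluorescent labels. Induction was on embryonic day 12. All cells carry the genotype M11GTTG, which holds the MADM cassettes, on a mixed C57/Bl6, FVB and CD1 background. The recombinase came from Fz10-CreER in 11 clones (22 cells) and from Sox2-CreER in 7 clones (14 cells), so each driver samples only progenitors in which its promoter is active. The superficial superior colliculus (sSC) gave 22 neurons, the deep part (dSC) 12 and the tissue labelled PAG 2. The age at collection is not given per cell in the sources used here, which state embryonic day 9.5 to postnatal day 30 for the study as a whole. Animals are not named, so clone, animal and day cannot be told apart, and p-values measure the spread between clones.

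A potassium channel of this class is a ring of pore-forming subunits that opens when the membrane depolarises and lets potassium leave the cell, which ends the action potential or sets the interval to the next. The Kcna (Shaker) subunits sit mainly on axons with the Kcnab beta subunits, the Kcnc (Shaw) subunits repolarise fast-firing neurons, and the Kcnd (Shal) subunits carry the transient dendritic current together with the Kcnip calcium-binding proteins. Kcnq and Kcnh subunits carry slower currents near the resting potential, and the Kcns, Kcnv and Kcng subunits are silent alone and modify Kcnb channels.

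Some members that lie close together in the genome had unlike levels, so the sequence just before their start sites is shown. Kcna2 and Kcna3 are neighbours with 0 protein-coding genes between them, and so are Kcna1 with Kcna5 and Kcna1 with Kcna6, so that Kcna5 and Kcna6 flank Kcna1. The 250 bases before the start site of 4 of these genes are given 5′ to 3′ from RefSeq's GRCm38.p6 build, with every CG in capitals, Kcna2 and Kcna3 on the plus strand and Kcna6 and Kcna5 on the minus strand.
Kcna2 (chr3:107101317-107101566): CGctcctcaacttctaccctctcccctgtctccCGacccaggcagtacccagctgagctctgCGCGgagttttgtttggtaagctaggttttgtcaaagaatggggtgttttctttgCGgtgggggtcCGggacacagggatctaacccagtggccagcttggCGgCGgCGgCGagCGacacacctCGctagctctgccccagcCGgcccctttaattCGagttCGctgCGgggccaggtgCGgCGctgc
Kcna3 (chr3:107035912-107036161): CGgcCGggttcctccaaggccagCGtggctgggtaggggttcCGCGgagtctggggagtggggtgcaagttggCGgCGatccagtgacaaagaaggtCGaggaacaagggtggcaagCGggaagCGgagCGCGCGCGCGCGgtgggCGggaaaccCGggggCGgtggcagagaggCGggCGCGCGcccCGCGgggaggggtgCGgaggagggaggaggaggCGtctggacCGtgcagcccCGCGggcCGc
Kcna6 (chr6:126740675-126740924): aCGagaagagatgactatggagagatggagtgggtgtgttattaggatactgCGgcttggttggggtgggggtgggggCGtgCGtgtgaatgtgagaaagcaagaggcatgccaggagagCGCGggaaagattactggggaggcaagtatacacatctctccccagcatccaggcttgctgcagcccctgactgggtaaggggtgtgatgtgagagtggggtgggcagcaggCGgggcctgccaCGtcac
Kcna5 (chr6:126535556-126535805): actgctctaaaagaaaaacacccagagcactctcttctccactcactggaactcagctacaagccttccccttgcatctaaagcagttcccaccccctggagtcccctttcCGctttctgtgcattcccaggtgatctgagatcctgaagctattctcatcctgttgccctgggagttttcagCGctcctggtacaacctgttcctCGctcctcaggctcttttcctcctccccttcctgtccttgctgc
Of these stretches Kcna2 held 18 CG and Kcna3 held 31, while Kcna6 held 8 and Kcna5 held 3. Kcna2 was at a value of 1 or more in 35 cells and Kcna3 in 16. Kcna6 was at 1 or more in 29 cells and Kcna5 in 2. More CG therefore went with the lower gene of the first pair and with the higher gene of the second. In all, 23 members had an entry in the promoter table. Kcna1, Kcnb2, Kcnd1, Kcnq3, Kcnh3, Kcns2 and Kcnv1 were not matched. The 23 had a median of 14 CG, against 6 over the 32851 promoters in the table, and 15 of the 23 were above that value. For members with several start sites the first listed one was used, while the 32851 promoters include every start site. Counts could differ between the sites of a gene, from 2 to 23 for Kcnip3 and from 3 to 20 for Kcnab2. A CG was present in 92.1% of all promoters. The letters TATAAA, read on both strands, were in 0 of the 23 and in 12.4% of all promoters of that length. Such a match, or its lack, describes the letters only. Across the 23, CG number and median value had a Spearman rho of 0.14, given as a description of genes measured in the same libraries.

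The libraries were checked against their label first. The 8 neuronal markers summed to between 559 and 5983 per cell with a median of 4125, and the median cell had 8 of 8 at 1 or more. Markers of other cell types were present too. The 12 microglial markers summed to between 85.4 and 14226 with a median of 2113. The 12 oligodendrocyte markers had a median of 3878 (1192 to 29239). The 11 astrocyte markers had a median of 1336 (130 to 2852) and the 5 red blood cell markers one of 667 (0 to 9623). No marker of these lists was at 0 in all 36 cells. Between 2661 and 16769 genes (median 12058) reached a value of 1. The sSC cell of clone B had the fewest, stood apart from the rest, and is left out as an alternative to each comparison. Read depth is unknown, because the values carry no counts. A listed 0 may mean only that the transcript was not captured.

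Of the 30 genes, 19 were found in 21 or more of the 36 cells. The genes are described in 3 tiers by median, which are for description only, since the medians run on without a break between the first 2. Values are the authors' signal, named TPM of exon plus intron. A scale per length is taken from that name alone, as the values sum to more than a TPM does, so the order of genes holds on the authors' scale only. Kcnd2, a Shal pore subunit, had the highest median level, 135 (lowest 0.20, highest 359). Kcnip4, a Shal partner, followed at 122 (6.90 to 728). These 2 were the top of the first tier and they act in the same channel. Kcnc2, a Shaw subunit of fast-firing cells, had a median of 76.6 and ranged from 0 to 787. Its Shaw relative Kcnc1 had a median of 44.2, with a highest value of 127. Kcna2, the axonal Shaker subunit, had a median of 49.9 (0 to 181). The interquartile ranges of these 3 overlapped, Kcnc2 at 36.2 to 106, Kcna2 at 30.7 to 73.6 and Kcnc1 at 29.4 to 58.9, so their order is not resolved by these cells.

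The rest of the 10 highest were Kcnip1 (median 38.7), Kcnb2 (29.6), Kcnq3 (28.2), Kcnab2 (26.3) and Kcnip2 (23.6). Kcnb2 is the Shab delayed rectifier, Kcnq3 carries the M-current, and Kcnab2 is the beta subunit of axonal Shaker channels. Kcnip1 and Kcnip4 were at 1 or more in 36 of 36 cells. Kcnip2, another Shal partner, behaved otherwise, with 26 cells at 1 or more and 10 cells listed at 0. The middle tier of 9 genes had medians between 7.62 (Kcnip3) and 21.0 (Kcna1). It also held Kcnd3, Kcna6, Kcnh7, Kcnc4, Kcnab1, Kcnq5 and Kcnh5.

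The lowest tier was patchy. In it 9 genes had a median of 0, while Kcnh2 and Kcnh1 had medians of 0.91 and 0.58. Several of the 11 were high in 1 or 2 cells. Kcna4, a Shaker subunit with a fast-inactivating current, reached 388 in 1 sSC cell of clone T. Kcns2, a silent subunit, reached 368 in 1 sSC cell of clone N and 237 in the dSC cell of clone A. Kcna4 was also at 82.1 in the dSC cell of clone D and at 61.4 in that of clone C. Kcns2 was at 21.6 or less in the other cells. The upper quartiles were 10.2 for Kcna4 and 2.27 for Kcns2. Members at 1 or more in under 25% of cells were Kcna5 (2 cells, highest 12.2), Kcns1 (2 cells, highest 8.91) and Kcng4 (7 cells, highest 34.4). These 3 did not reach the limit for testing, and the other 27 did in all comparisons but that of the drivers, where Kcns2 was also short of it and 26 were tested. The plot of all cells shows them in this order.

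**Figure D1:**
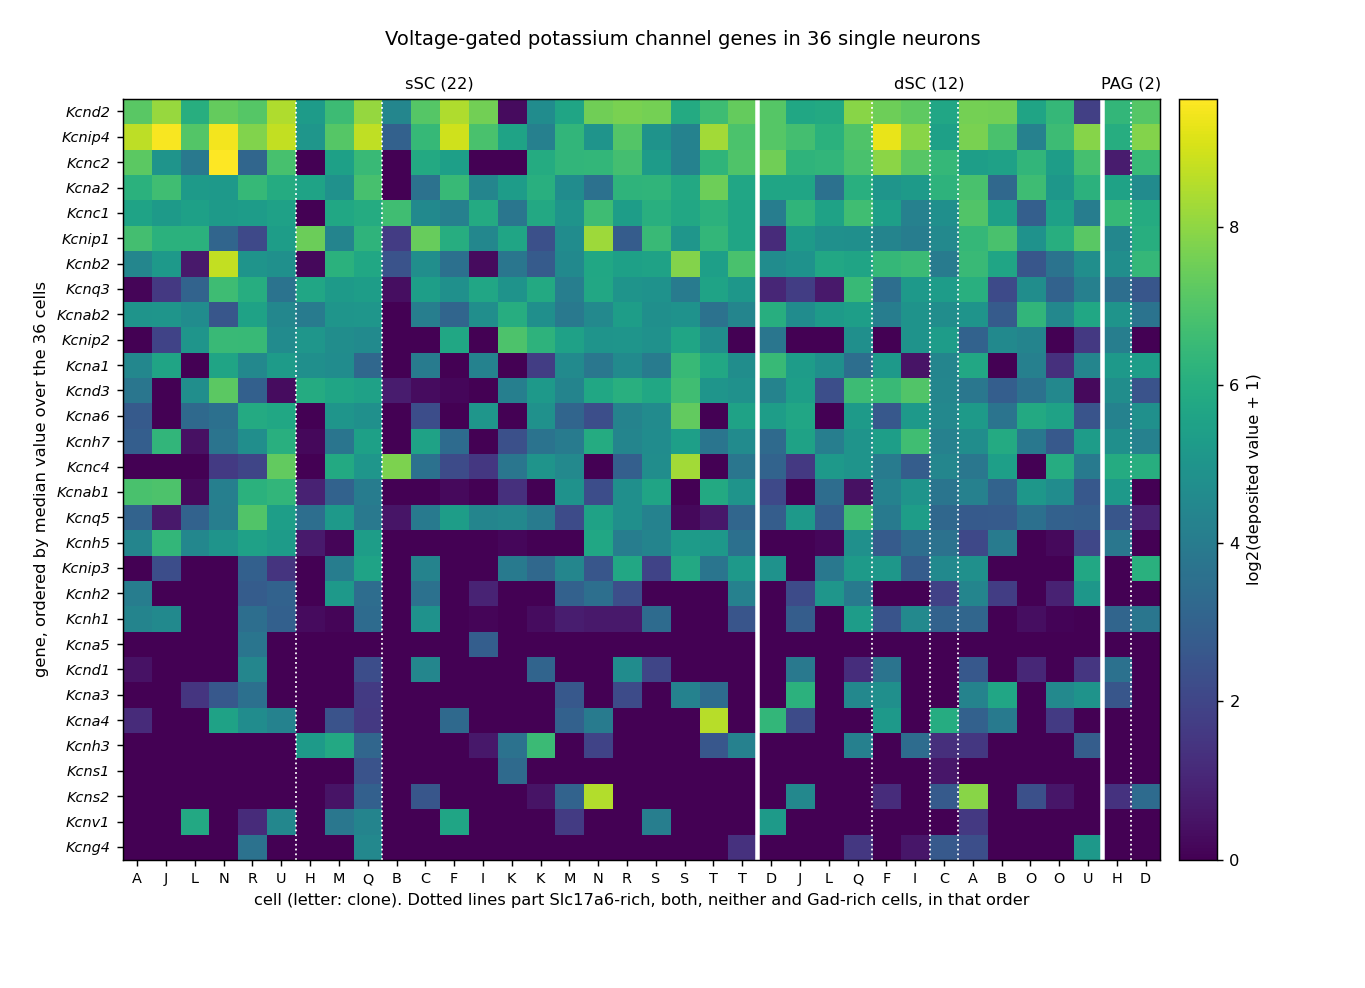
Heat map of log2(deposited value + 1) for the 30 genes (rows, by median over the 36 cells) in each neuron (columns, labelled by clone, parted by tissue and transmitter class). The upper rows are filled in nearly every cell, the lowest 9 rows have a median of 0, and the nearly empty column of clone B among the sSC cells is the library with 2661 genes.

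**Figure D2:**
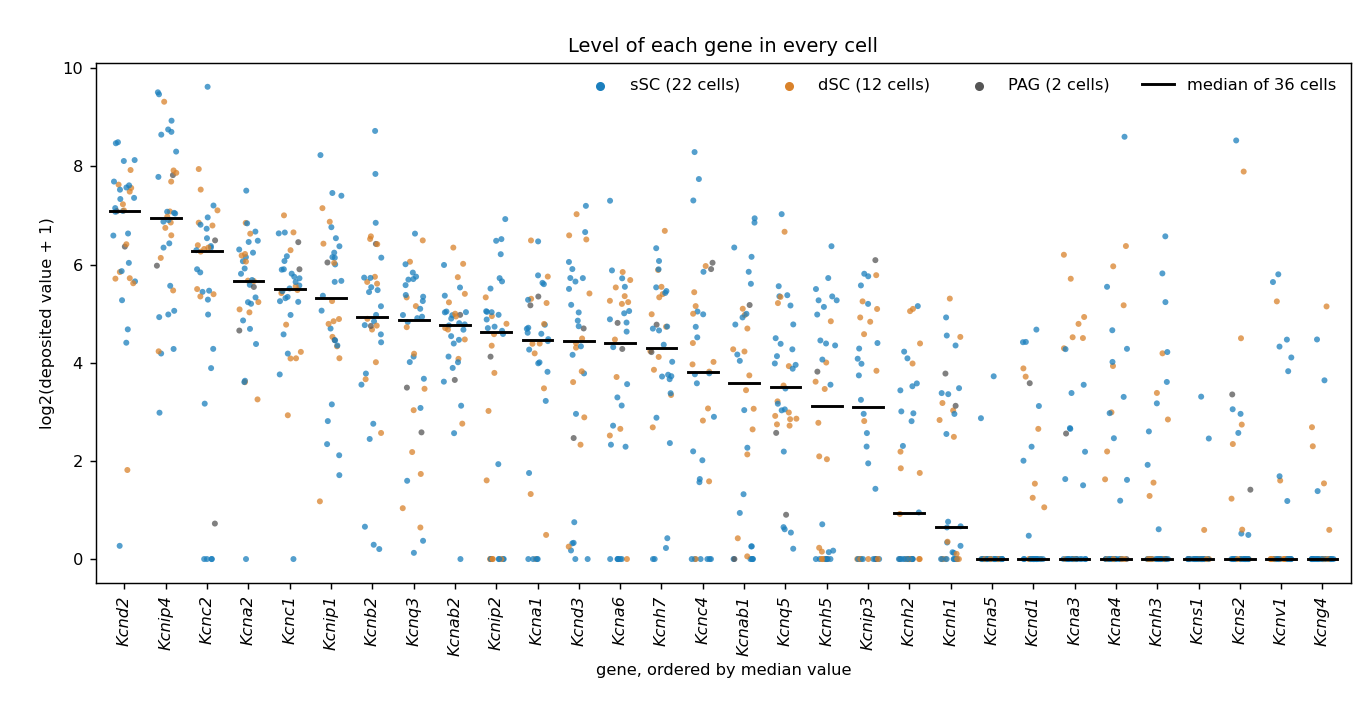
The same values by gene, 1 point per cell coloured by tissue, with the median of the 36 cells as a black line (vertical axis log2(deposited value + 1)). Kcnd2 and Kcnip4 have the highest medians (135 and 122 as deposited values), and for Kcna3 the 7 highest points are dSC cells.

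The number of members at 1 or more in a cell ran from 6 to 29, with a median of 20. It was 6 in the sSC cell of clone B. That cell listed Kcna2, Kcna1, Kcnab2 and Kcnc2 at 0 and yet had Kcnc1 at 99.6, the highest Kcnc1 value among the sSC cells. The highest number, 29, was in the sSC cell of clone Q, which also had the most genes of all kinds, 16769. The summed value of the 30 genes ran from 348 in the clone B cell to 2685 in a Slc17a6-rich sSC cell of clone N. That clone N cell had Kcnc2 at 787, Kcnip4 at 708 and Kcnb2 at 421.

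Because the values add intron reads, the GENCODE M21 models were used for intron length, with no positions taken from them. Of the members, 12 have over 100 kb of intron, and 9 of those 12 were at 1 or more in 29 or more cells, beside 6 of the 18 with less. The longest is Kcnip4 with 1132 kb of intron, and Kcna3 and Kcna5 have 0. Median value and intron length had a Spearman rho of 0.58 over the 30 genes, which share the same libraries. Genes on the opposite strand overlap 14 members. Kcnd3 overlaps Kcnd3os, Kcnh1 overlaps Hhat, Kcnab2 overlaps Nphp4, Kcnip1 overlaps Kcnmb1 and Kcna3 overlaps Gm27008. Since the use of strand is not stated, reads of such partners cannot be told apart.

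Some members went together across cells. Only the 19 members at 1 or more in at least 18 cells were paired, giving 171 pairs. Of these Kcnb2 and Kcnh7, an ERG-type subunit, had the highest correlation of log2 values, Pearson 0.74 and Spearman 0.60 over 36 cells, and 0.73 without the clone B sSC cell. Kcnc2 also went with Kcnb2 (Pearson 0.62, and 0.60 without that cell). Kcnd2 and its partner Kcnip4 had Pearson 0.46 and Spearman 0.58. Kcna2 and Kcnab2, which form axonal channels together, had Pearson 0.62, but 0.30 without the clone B sSC cell. These are descriptions: cells share clones, libraries differ in gene number, and Kcnb2 and Kcnh7 themselves had correlations of 0.53 and 0.63 with the number of genes in the cell. Those 2 genes are also among those with long introns, 421 and 476 kb.

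The first comparison asks whether superficial and deep neurons differ in their channels. Kcna3, a Shaker subunit known from lymphocytes, microglia and some neurons, and Kcnc2 stood lowest in sSC relative to dSC, and no member passed the test. In the 22 sSC cells Kcna3 was lowest at 0, had a median of 0 and reached 18.4. In the 12 dSC cells it was lowest at 0, had a median of 20.1 and reached 72.5. It was at 1 or more in 8 of 22 and 7 of 12 cells, and the ranges overlapped at the low end, while 7 dSC cells lay above every sSC cell. Over clone means on the log2(value + 1) scale Kcna3 averaged 0.78 ± 0.98 for the sSC clones (SD, n = 16). For the dSC clones it averaged 2.97 ± 2.55 (SD, n = 11). The difference was -2.19 (SE 0.71, limma adjusted p = 0.933).

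Kcnc2 was at 1 or more in all 12 dSC cells, from 39.8 through a median of 81.7 to 246. In sSC it ran from 0 through a median of 49.8 to 787, with 4 cells listed at 0 and the highest cell of the series in the same group. Every dSC value fell inside the sSC range. Its difference was -1.92 (SE 0.81, limma adjusted p = 0.941). The 4 sSC cells listed at 0 had 2661, 6180, 7652 and 9140 genes at 1 or more. Over the 36 cells Kcnc2 had a correlation of 0.53 with that number, whose part in the difference was not tested. Kcnh7 came next among members lower in sSC at -1.38 (SE 0.76, limma adjusted p = 0.971).

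In the other direction the smallest p-values belonged to Kcnv1, Kcnip2 and Kcnh5, with differences of 0.98, 0.86 and 0.78 and limma adjusted p-values of 0.971, 0.972 and 0.977. Kcnv1, a silent subunit, reached 1 in 8 of 22 cells from sSC and in 2 of 12 from dSC. The widely used channels lay close to 0. The difference was -0.11 for Kcnc1 (95% interval -1.39 to 1.16), -0.12 for Kcna2 (-1.46 to 1.22), -0.08 for Kcnip4 (-1.40 to 1.24) and -0.36 for Kcna1 (-2.03 to 1.31). These intervals span more than a doubling in each direction, so equal levels are not shown. Kcnab2 was at -0.66 (-1.88 to 0.56).

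With limma, 0 of the 27 members tested passed the adjusted threshold of 0.05, and 0% of the 14613 genes tested did. At an unadjusted p below 0.05 there were 2 members (Kcna3 and Kcnc2) and 754 genes (5.16%). Of the 27 members, 20 were lower in sSC, with a median difference of -0.34, beside -0.31 over all genes tested. Quantile normalization brought these medians to -0.17 and -0.14, with 11 members higher in sSC. With the number of genes as covariate they were -0.06 and 0.07, with 13 members higher. The size of the group's shift thus moved with the setting. Without the clone B sSC cell the medians were -0.21 and -0.14. Again 0 members passed, and Kcna3 and Kcnc2 were at -2.14 and -1.61. The 12 microglial markers, which can bear on Kcna3, summed to a median of 1972 in sSC (186 to 14226, with 10 of 12 at 1 or more in the median cell) and 3329 in dSC (85.4 to 13544, with 11 of 12). Across the 36 cells their log2 sum had a correlation of 0.21 with Kcna3. The 11 astrocyte markers had medians of 999 in sSC (130 to 2852) and 1724 in dSC (855 to 2567) and a correlation of 0.22 with Kcna3, and the number of genes had one of 0.35. The part of these in the difference was not tested.

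**Figure D3:**
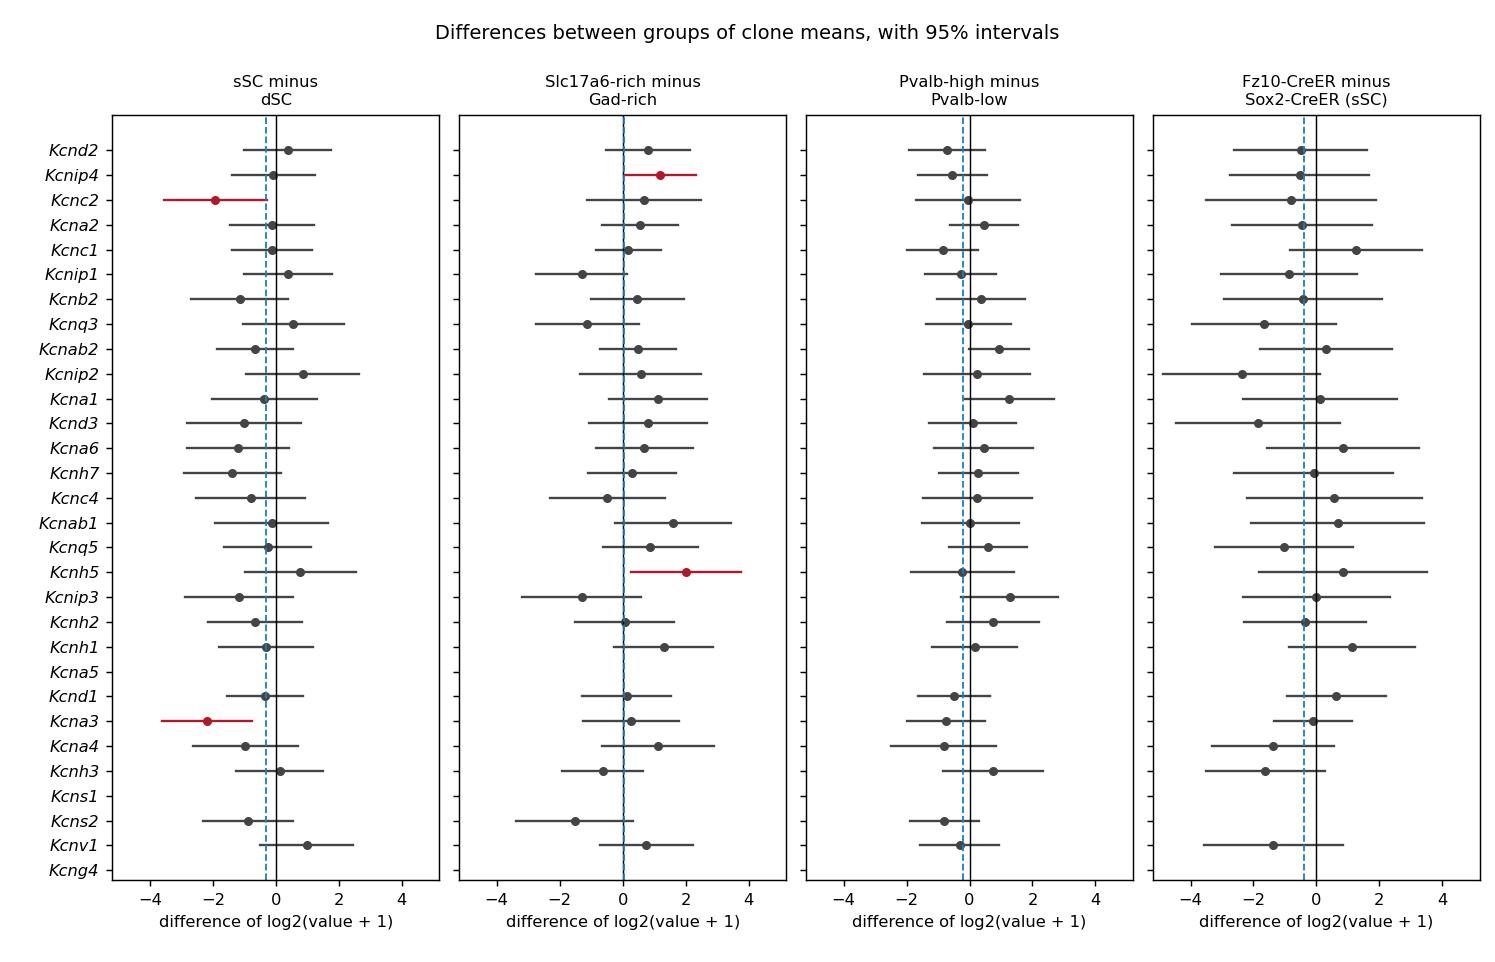
Difference in mean log2(value + 1) between groups of clone means for each member (points) with its 95% interval (bars), in 4 comparisons. Red marks an unadjusted p below 0.05, none of which passed adjustment, the dashed line is the median of all genes tested, and members without a bar did not reach the limit for testing.

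The 9 clones with 1 neuron in each tissue gave the closest look at Kcna3. In 6 of the 9 it was lower in the sSC sibling, in 1 higher and in 2 equal at 0. In clone J the dSC sibling had 72.5 and the sSC sibling was listed at 0. Clone B had 51.4 and 0, clone U 29.5 and 0, clone F 26.7 and 0, clone Q 21.7 and 2.1, and clone A 18.6 and 0, dSC first in each. Clone L was the exception, with 1.8 in its sSC cell and 0 in its dSC cell, and both cells of clones C and I were at 0. With the clone as a block, a fit that compares siblings, Kcna3 was at -3.03 (SE 0.94, limma adjusted p = 0.464).

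Kcnc2 was lower in the sSC sibling in 7 of 9 clones and Kcnab2 in 8 of 9. Under the block 0 members passed and 1 gene of all did. The members at an unadjusted p below 0.05 were then 6, beside 1318 genes: Kcna3, Kcnb2, Kcnc2, Kcnd3 and Kcnip3 lower in sSC and Kcnv1 higher. Kcnd3, a Shal subunit, was at -2.63 (SE 1.06), and Kcnv1 at 2.07 (SE 0.86). The block gave a median of -0.71 over the members and -0.66 over all genes tested.

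**Figure D4:**
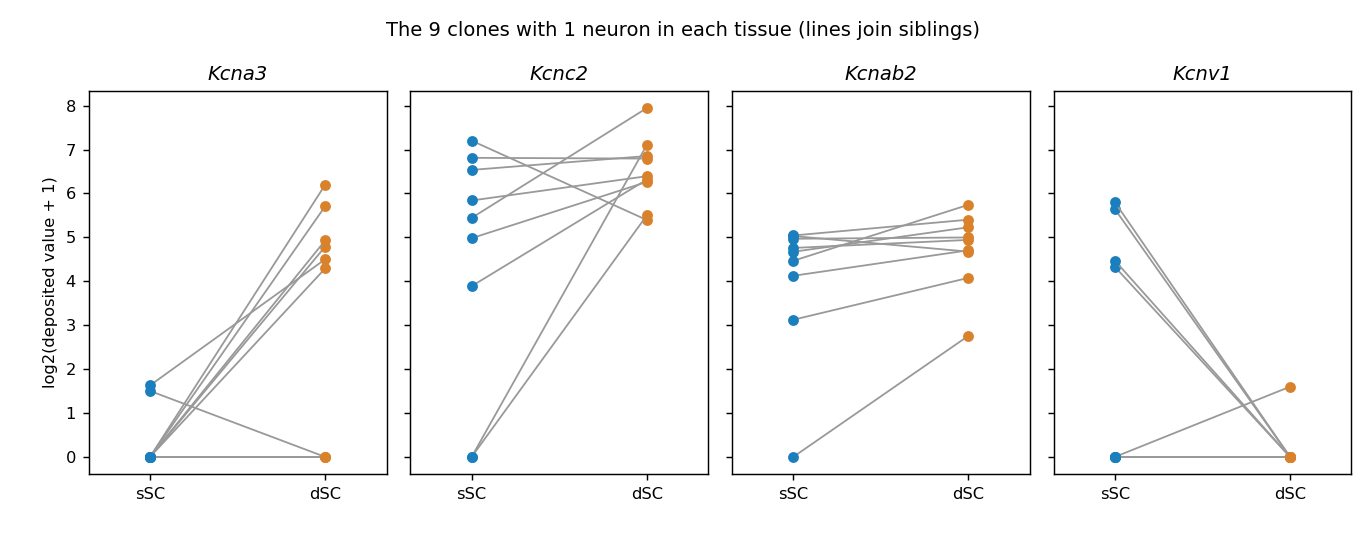
Kcna3, Kcnc2, Kcnab2 and Kcnv1 in the 9 clones with 1 neuron in sSC and 1 in dSC (vertical axis log2(deposited value + 1), lines join siblings). Kcna3 is lower in the sSC sibling in 6 clones and Kcnab2 in 8, and Kcnv1 is at 0 in the dSC sibling of every clone but A, where it is 2.03.

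The comparison by transmitter sets neurons rich in Slc17a6, the vesicular glutamate transporter, against those rich in Gad1 or Gad2, the enzymes that make GABA. A value of 100 parted 11 Slc17a6-rich cells (9 clone means) from 19 Gad-rich cells (14 clone means), with 5 cells rich in both and 1 in neither. The classes are ranges and not types, since 14 cells had Slc17a6 within a factor of 2 of that value and 10 had their higher Gad gene there. By p-value, Kcnh5, an EAG-type subunit, and Kcnip4 led among members higher in the Slc17a6-rich cells, and Kcnip1 among those higher in the Gad-rich cells, but no member passed.

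Kcnh5 was lowest at 0 in the Slc17a6-rich cells, with a median of 20.9 and a highest value of 81.9. In the Gad-rich cells it had a median of 0.17, from 0 to 51.9, and the ranges overlapped widely. It was at 1 or more in 8 of 11 and 9 of 19 cells, and its difference was 2.01 (SE 0.86, limma adjusted p = 0.999). Kcnip4 ran from 62.0 through a median of 135 to 728 in Slc17a6-rich cells and from 6.90 through 95.7 to 487 in Gad-rich cells. All Slc17a6-rich cells thus lay above the lowest Gad-rich cells, and its difference was 1.18 (SE 0.56, limma adjusted p = 0.999). Kcnab1, a beta subunit that speeds inactivation, came next by p-value at 1.61 (SE 0.90).

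Kcnip1 went the other way. It had a median of 27.7 in Slc17a6-rich cells (1.26 to 107) and 63.1 in Gad-rich cells (2.27 to 299), and its difference was -1.29 (SE 0.71, limma adjusted p = 0.999). Kcns2 was at -1.53 (SE 0.92), with 2 of 11 Slc17a6-rich and 6 of 19 Gad-rich cells at 1 or more, and Kcnip3 at -1.31 (SE 0.92). Kcnip2 was at 0.58 (SE 0.94), and it took the other sign at class values of 50 and 200 (-0.13 and -0.25).

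Among the Shaw and Shaker genes named in every comparison, and Kcnab2, all intervals included 0. The difference was 0.18 for Kcnc1 (95% interval -0.86 to 1.22), 0.68 for Kcnc2 (-1.13 to 2.49), 0.55 for Kcna2 (-0.67 to 1.77) and 0.49 for Kcnab2 (-0.72 to 1.69). For Kcna1 it was 1.12 (-0.45 to 2.69). Kcnc1 had medians of 44.7 in Slc17a6-rich and 49.0 in Gad-rich cells, and all 30 of these cells had it at 1 or more.

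With limma, 0 of 27 members passed, beside 5 of all 14352 genes tested (0.0348%). Those 5 were Gata3, Otx2, Asic4, Sox14 and Rpp25, named after their values were seen, and all were higher in Gad-rich cells. At an unadjusted p below 0.05 there were 2 members and 660 genes. Of the members, 21 were higher in Slc17a6-rich cells with a median difference of 0.55, beside 0.05 over all genes. In the 5 clones with a sibling on each side, the block gave 14 of 27 higher and a member median of 0.05, beside -0.45 over all genes. Kcnab1 was higher in the Slc17a6-rich sibling in 5 of 5 clones and Kcnip3 lower in 5 of 5, while Kcns2 was lower in 3 and equal in 2. In clones A, D and U the siblings also lay in different tissues, so class and tissue cannot be told apart there. In clones N and R both cells were from sSC. With the block Kcnab1 was at 2.35 (SE 1.03), Kcnip3 at -3.15 (SE 1.12) and Kcns2 at -3.96 (SE 1.501), each with a limma adjusted p of 0.833. The Kcns2 value rests on clones N (368 and 0), A (237 and 0) and D (9.22 and 0), Gad-rich sibling first. In dSC cells alone Kcnh5, Kcnip4 and Kcnab1 took the other sign (-0.81, -0.22 and -2.20), and whether the tissues differ in this was not tested.

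The comparison by Pvalb asks how the channels relate to Pvalb, the calcium-binding protein parvalbumin, which elsewhere in the brain marks fast-firing neurons rich in Shaw channels. The cells were split at the median Pvalb value of 569.6 into 18 high and 18 low, giving 13 clone means on each side, and 17 cells lay within a factor of 2 of that value. Kcnip3, Kcna1 and Kcnab2 had the largest differences towards the Pvalb-high cells, and the Shaw subunit Kcnc1 the largest the other way. No member passed.

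Kcnab2 ran from 11.55 through a median of 31.6 to 80.3 in Pvalb-high cells and from 0 through 21.8 to 31.98 in Pvalb-low cells. Close to the median of the high cells lay the top of the low ones, and the difference was 0.94 (SE 0.48, limma adjusted p = 0.806). Kcna1 had medians of 25.02 (0 to 89.0) and 14.1 (0 to 53.9), a difference of 1.26 (SE 0.70, limma adjusted p = 0.830). Kcnip3, also called calsenilin or DREAM, was at 1 or more in 15 of 18 and 9 of 18 cells and differed by 1.27 (SE 0.75, limma adjusted p = 0.856). In the 8 clones with a cell on each side the Pvalb-high sibling was higher in 7 for Kcnab2, in 5 for Kcna1 and in 4 for Kcnip3. With the clone as a block the differences were 0.69 (SE 0.70) for Kcnab2, 0.64 (SE 0.90) for Kcna1 and 0.71 (SE 0.82) for Kcnip3.

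Kcnc1, a Shaw subunit, was at -0.86 (SE 0.56, limma adjusted p = 0.870), with medians of 42.1 in Pvalb-high and 45.1 in Pvalb-low cells. Its difference includes the sSC cell of clone H, listed at 0 and the only Pvalb-high cell of that clone. Among the low cells it includes the sSC cell of clone B at 99.6, and the part of these cells was not tested. Kcnc2 was at -0.05 (95% interval -1.70 to 1.596), with medians of 79.5 and 57.6 that point the other way. Its level was from 0 to 184 in the high and from 0 to 787 in the low cells. Kcns2 and Kcna3 were at -0.80 and -0.76, Kcna2 at 0.47 (SE 0.53), Kcnip2 at 0.24 (SE 0.83) and Kcnip4 at -0.55 (SE 0.54). When the split was moved to a Pvalb value of 100, Kcnc2 was at 2.93, and neither value passed. That split set 17 clone means against only 5 low ones. Among the low cells Kcnc2 was at 0 in the sSC cells of clones B and I and at 0.65 in the PAG cell of clone H. The other low cells had it from 39.8 to 44.3.

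With limma, 0 of 27 members passed, beside 1 of 14901 genes (0.00671%). That gene was Gm28932, named after its value was seen. At an unadjusted p below 0.05 there were 0 members and 943 genes. The members' median was 0.10 with 15 of 27 higher in Pvalb-high cells, beside -0.20 over all genes. Quantile normalization moved these medians to 0.36 and -0.01, with 17 of 27 higher. Leaving out the clone B sSC cell gave 0 members, and leaving out clone B, whose cells both listed Pvalb at 0, also gave 0, with Kcnab2 at 0.71 and Kcna1 at 1.00.

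As a description over the 36 cells, log2 Pvalb had its highest Pearson correlations with Kcnab2 (0.67), Kcna2 (0.59), Kcna1 (0.58) and Kcnip3 (0.48). Over the 34 cells outside clone B these were 0.33, 0.14, 0.38 and 0.41, lower for each and most so for Kcna2. Kcnc1 had -0.28 and -0.27. The red blood cell markers moved with Pvalb as well. Their sum had a median of 1918 in Pvalb-high cells (171 to 9623) and 191 in Pvalb-low cells (0 to 3277), and its log2 value had a correlation of 0.68 with Pvalb and 0.66 with Kcnab2. Without clone B these were 0.37 and 0.36. The 8 endothelial and pericyte markers had medians of 48.3 (0.31 to 336) and 3.03 (0 to 46.4). The part of these markers in the channel values was not tested.

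**Figure D5:**
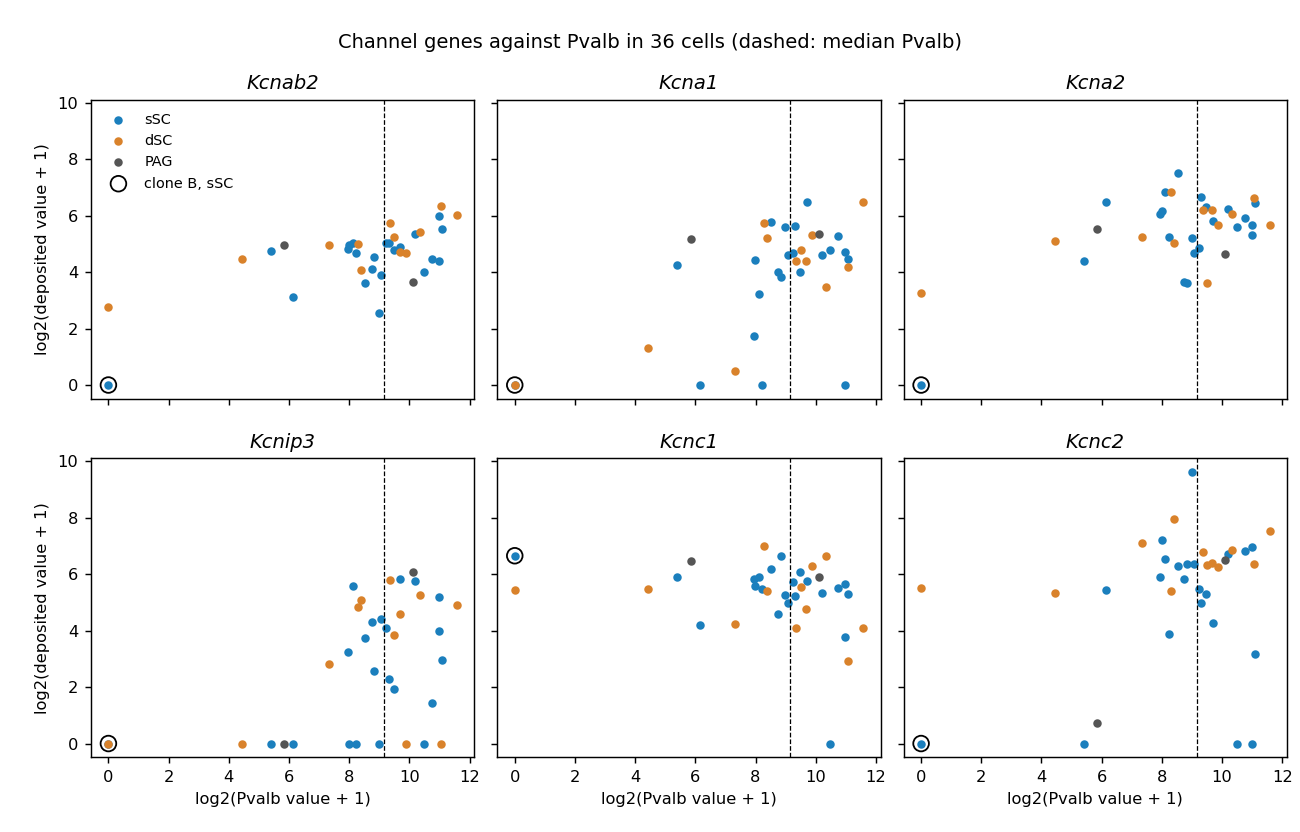
Level of 6 members against Pvalb in the 36 cells (both axes log2(value + 1), points coloured by tissue, dashed line at the median Pvalb of 569.6). Both cells of clone B lie at Pvalb 0 (the sSC cell is ringed), Kcnab2 has the highest correlation (0.67) and Kcnc1 a negative one (-0.28).

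The comparison by driver sets the drivers against each other among sSC cells, 11 Fz10-CreER clones (15 cells) and 5 Sox2-CreER clones (7 cells). Kcnip2 was lowest in Fz10-CreER cells and Kcnc1 highest, with no member past the test. Kcnip2 ran from 0 through 25.6 to 121 in the Fz10-CreER cells, 5 of which were listed at 0. All 7 Sox2-CreER cells had it, from 23.02 through 32.1 to 90.7, inside the range of the other group. Its difference was -2.37 (SE 1.23, limma adjusted p = 1).

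Kcnh3, an ELK-type subunit, and Kcnq3 came next by p-value at -1.63 (SE 0.93) and -1.66 (SE 1.12). In the other direction were Kcnc1 at 1.26 (SE 1.03), Kcnh1 at 1.13 (SE 0.98) and Kcnd1 at 0.63 (SE 0.77). The Kcnc1 value includes the sSC cell of clone H, listed at 0 in the Sox2-CreER group, and the clone B cell at 99.6 in the Fz10-CreER group. Kcnc2 was at -0.81 (SE 1.33), Kcna1 at 0.12 (SE 1.20), Kcna2 at -0.46 (SE 1.09), Kcnab2 at 0.30 (SE 1.03) and Kcnip4 at -0.53 (SE 1.08).

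With limma, 0 of 26 members and 0% of 14320 genes passed, and 0 members and 587 genes had an unadjusted p below 0.05. The members' median was -0.40, with 17 of 26 lower in Fz10-CreER cells, beside -0.38 over all genes. With quantile normalization 13 of 26 were higher and the median over all genes was -0.05, so no direction is read from the group. Driver cannot be told apart from the animals that carried it.

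The last comparison asks whether siblings resemble each other in their channels. No member had a clone effect that passed the test, and the pairs are described first. Over the 18 pairs, Kcnip1 and Kcnip4 were at 1 or more in both siblings in 18, and Kcna2, Kcnc1, Kcnd2 and Kcnab2 in 17. Presence was split in most pairs for some others: 12 pairs had Kcna3 in 1 sibling alone, 11 had Kcnab1 so and 10 had Kcnip2 so. The correlation of sibling log2 values was highest for Kcna2 (0.46), Kcnq3 (0.45) and Kcnab2 (0.39), and lowest for Kcna3 (-0.44), as a description over 18 pairs that share animal and day. These values include clone B, whose sSC cell had the fewest genes. There Kcna2 was at 8.53 and 0, Kcnq3 at 3.53 and 0.29 and Kcnab2 at 5.77 and 0, dSC first. Sibling correlations without clone B were not computed. The mean gap between siblings was smallest among the widely found genes for Kcnab2, 0.98 log2 units, and for Kcna2, 1.12. It was 3.09 for Kcnab1 and 2.94 for Kcnip2.

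Single pairs could lie far apart. In clone N, both cells in sSC, Kcns2 was at 368 in the Gad-rich cell and listed at 0 in the Slc17a6-rich cell. In clone I Kcnc2 was at 137 in the dSC cell and at 0 in the sSC cell, and Kcnh7 at 102 and 0. In clone J Kcnab1 was at 122 in the sSC cell and at 0.039 in the dSC cell.

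The clone effect was tested with limma's moderated F test over the 16 clones without PAG cells, with tissue as a covariate. None of the 27 members passed, beside 3 of 15132 genes (0.0198%), and 1 member and 1180 genes had an unadjusted p below 0.05. The 3 genes were Eif2s3y, Rps3a3 and Gm45016, named after their values were seen. The member was Kcnh3 (F = 2.51, adjusted p = 0.564). Kcnd3 (F = 2.06) and Kcnip3 (F = 1.99) came next, and the adjusted p-values of the members ran from 0.564 to 0.973, the last for Kcnc1 (F = 0.45). Kcna2 had F = 1.66, Kcna1 1.71, Kcnip4 1.74, Kcnab2 1.23, Kcnc2 1.23 and Kcnip2 0.88.

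No potassium channel gene outside the 30 passed either. Of 55 further genes of the table (other voltage-gated alpha subunits, auxiliary and anchoring proteins, calcium- and sodium-activated, inward rectifier and 2-pore channels), 41, 40, 42, 40 and 42 were tested in the 5 comparisons in the order given. With limma 0 passed in each, and 2, 3, 3, 0 and 3 had an unadjusted p below 0.05.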

How the data were processed

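Single neurons were collected by MADM-CloneSeq, and, per the labels' protocols, Takara's SMART-Seq Single Cell PLUS chemistry made the libraries. The submitters' processing notes name STAR 2.7.9a, R 4.0.3 and the GRCm39 build. How reads were counted, with which annotation and whether by strand, is not given in the sources used here. Deposited values are a signal, called by the authors exon plus intron TPM. Each cell sums to 2000000 where a plain TPM sums to less, so they were treated as a normalized signal, not as counts or as TPM, and depth is unknown. A pseudocount of 1 was added and log2 taken, so fold changes of low genes are understated.

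Gene symbols came from a GENCODE M21 table, which matched 52083 of 55359 genes. A gene was tested where 25% or more of a comparison's cells had it at 1 or more. The test ran on means of the cells of 1 clone and 1 group, with limma 3.58.1 in R 4.3.3 (moderated by eBayes with trend and robust, 2-sided, Benjamini-Hochberg over all genes tested, threshold 0.05). The genes that define a class were left out of its test. Python 3.11.15, numpy 2.4.6, pandas 2.3.3 and matplotlib 3.10.9 were used for the rest, and the fit was tested on simulated data. The members, lists and class values were chosen with earlier results of these data known. Named in each comparison were all members past the threshold, otherwise the 3 members per direction with the smallest p (for the clone effect, the 3 smallest), and always Kcnc1, Kcnc2, Kcna1, Kcna2, Kcnab2, Kcnip2 and Kcnip4. Levels were named for the 10 highest medians and for members at 1 or more in under 25% of cells.

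Siblings come from 1 animal by the design of MADM, which pairs the cells of a clone. In the 9 clones split between sSC and dSC the siblings' deviations from their group means, over 14613 genes, had correlations from -0.025 to 0.063. Alternatives were the pseudocount, the filter, quantile normalization, covariates, the class values, the moderation, single tissues, left-out cells or clones and the clone as a block. Leaving out the whole of clone B was chosen after seeing the data.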

Additional observations from a re-analysis of the deposited data

Results flagged for a closer look

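In groups of 4 to 10 clones, the highest or lowest clone mean was compared with its nearest neighbour by Dixon's ratio at the 95% level. Of 81 combinations of member and group, 11 stood apart. Chance gives about 1 in 20 where values follow a normal distribution, which was not examined here. That rate does not hold for the 4 combinations in which all other clones were at 0 (Kcnv1 in both dSC groups, Kcnh3 and Kcnd1). For Kcnh2 and Kcnh1 the other clones also lay close to 0, at most at 0.4594 and 0.4429. All values are clone means of log2(value + 1). Among the 7 Fz10-CreER clones in dSC, Kcnd2 was low in clone U at 1.814 (nearest 5.713), Kcnab2 was low in clone B at 2.759 (nearest 4.676), and Kcnv1 was high in clone A at 1.6 (all others 0). Among the 4 Sox2-CreER clones in dSC, Kcna6 was low in clone F at 2.652 (nearest 5.262) and Kcnip3 low in clone O at 0 (nearest 4.922). In the same group Kcnh2 was high in clone Q at 3.984 (nearest 0.4594), Kcnh3 high in clone Q at 4.191 (others 0) and Kcnv1 high in clone D at 5.249 (others 0). Among the 5 Sox2-CreER clones in sSC, Kcnd1 was high in clone Q at 2.289 (others 0), Kcnh1 high in clone Q at 3.359 (nearest 0.4429) and Kcnd3 low in clone F at 0.1755 (nearest 4.994). Clone Q accounts for 4 of the 11. Its sSC and dSC cells had 16769 and 13815 genes at 1 or more, beside a median of 12058 over the 36 cells. The part of gene number in these values was not tested.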

How the results depend on the processing

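The number of members past the threshold was 0 in every comparison under every alternative run, while sizes, signs and the counts over all genes moved. In sSC against dSC the genes past the threshold went from 0 to 1 with a pseudocount of 10, with quantile normalization and with the clone as replicate block. For Slc17a6-rich against Gad-rich the 5 genes became 2 with a pseudocount of 10, with no filter or with a class value of 50. They became 3 without trend and robust or by the sign of the balance, 8 with the number of genes as covariate or without the clone B sSC cell, and 11 with a class value of 200. They became 0 with the clone as replicate block, in sSC alone and in dSC alone. For Pvalb the 1 gene became 0 without the clone B sSC cell, with tissue as covariate, at a value of 100 and in sSC alone. It became 2 with the balance as covariate and 3 with the clone as replicate block or without clone B. For the drivers 0 became 1 with a pseudocount of 10 and ranged from 0 to 5 when each Sox2-CreER clone was left out, 5 without clone H and 1 without clone F. For the clone effect 3 became 6 with a pseudocount of 0.1 or with 18 clones, 90 with no filter and 1 without trend and robust. The cause of these changes was not tested.

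Under alternatives 604 values of named members kept their sign and side, among them the F values of the clone effect, which cannot be negative. A further 34 took the other sign, none past the threshold. For sSC against dSC these were Kcna2 at 0.015 (pseudocount 10), 0.30 (number of genes as covariate) and 0.23 (without the clone B sSC cell). Kcnip4 was at 0.17 (quantile), 0.26 (number of genes), 0.18 (without that cell) and 0.32 (replicate block), Kcnc1 at 0.11 (number of genes) and Kcnip2 at -0.26 (replicate block). For the classes Kcnc1 was at -0.65 and Kcnab2 at -0.15 with the replicate block, and Kcnc1 at -0.095 in sSC alone. In dSC alone Kcnh5 was at -0.81, Kcnip4 at -0.22, Kcnab1 at -2.20, Kcnip3 at 0.85, Kcna2 at -0.29 and Kcnip2 at -0.70. Kcnip2 was at -0.13 with a value of 50. With 200, Kcnc1 was at -0.012, Kcnab2 at -0.041 and Kcnip2 at -0.25, and by the sign of the balance Kcnc1 was at -0.14. For Pvalb, Kcnc2 was at 0.35 (number of genes), 0.039 (tissue) and 2.93 (value of 100), Kcna2 at -0.078 (replicate block), and Kcns2 at 0.88 and Kcnip4 at 0.25 (value of 100). For the drivers Kcnc2 was at 0.49, Kcna2 at 0.13 and Kcnip4 at 0.058 with the number of genes as covariate. Kcna2 was at 0.051 without the clone B sSC cell, and Kcna1 ranged from -0.75 (without clone F) to 0.45 over the left-out Sox2-CreER clones. Depth is unknown, so a listed 0 has no upper limit here.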
